A study of Mus musculus with 18 samples.

Results

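Wild-type (WT) hearts and hearts labelled as a cardiac-specific knockout of Med13 (cKO) were compared in mice fed normal chow, with no drug and no hormone given. The comparison used 6 of the 18 libraries in the study, 3 WT chow hearts and 3 cKO chow hearts, chosen by their genotype and treatment labels alone. All mice were C57BL/6 aged 12 weeks, and normal chow was fed from 8 weeks of age for 4 weeks. The other 12 libraries, 3 in each of 4 groups, came from WT and cKO mice fed propylthiouracil (PTU), which blocks synthesis of thyroid hormone, or fed PTU and then given 3 daily injections of triiodothyronine (T3), the active hormone. They entered the estimate of the spread between hearts, and their own genotype differences are set beside those on chow. The sources used here do not say which promoter drives the Cre recombinase, or whether the WT mice carried Cre or floxed alleles. No label ties each library to an animal of its own, so some of the spread behind each p-value may be technical.

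Mediator is the large complex that carries signals from DNA-bound transcription factors to RNA polymerase II. Med13 sits in its detachable kinase module together with Med12, the kinase Cdk8 and cyclin C, and it joins that module to the core complex, where the module can hold transcription back. In the heart Med13 is known for an influence on metabolism and on genes controlled by nuclear hormone receptors, among them the thyroid hormone receptors, which induce the fast myosin heavy chain and the calcium pump and repress the slow myosin.

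Expression was measured by polyA RNA sequencing and deposited as FPKM, reads per gene scaled for transcript length and library size. Between 11746 and 11959 genes reached 1 FPKM in each of the 6 chow libraries. The total number of reads is unknown, and relative depth, read from the spacing of low values, lay between 0.787 and 1 of that of WT chow heart 1. Across genes, log2 values correlated at 0.984 to 0.992 within a genotype and at 0.981 to 0.992 between genotypes, although genes are not independent replicates. Y-linked genes (Ddx3y, Eif2s3y, Kdm5d and Uty) were expressed in all 6 hearts and Xist stood at 0.196 FPKM or less in each. The defining marker of ventricular muscle Myl2, its regulatory light chain, stood at 14886 to 23829 FPKM in all 6.

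Med13 itself (chromosome 11, 86267033 to 86357602, GRCm38) was measured at 5.52, 5.24 and 5.80 FPKM in the WT chow hearts and at 6.26, 6.34 and 5.09 FPKM in the chow hearts labelled cKO. The groups overlapped, and 2 of the 3 hearts labelled cKO were the highest of the 6. The log2 difference, cKO minus WT, was 0.08 with a 95% interval of -0.15 to 0.30 (limma adjusted p = 0.999). A gene-level value sums reads over the whole transcript, and no values per exon were analysed here, so the genotype could not be read from these values. Every direction below therefore rests on the labels.

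The other subunits of the kinase module overlapped between the groups too. Med12, the subunit that activates the kinase, was measured at 6.67, 7.53 and 6.71 FPKM in WT and 5.64, 6.84 and 6.88 FPKM in cKO hearts. Cdk8, the kinase, stood at 10.2, 8.68 and 9.58 against 10.4, 7.99 and 9.65 FPKM, and Ccnc, which encodes cyclin C, at 6.64, 6.84 and 6.76 against 5.34, 6.13 and 6.81 FPKM. In the cyclin gene 2 of the cKO hearts lay below every WT heart and cKO chow heart 3 did not. Med13l, the paralog that can take the place of Med13, was not higher in cKO hearts at 4.90, 4.40 and 5.06 FPKM against 5.17, 5.28 and 4.92 FPKM, with a log2 difference of -0.08 (95% interval -0.29 to 0.13). Cdk19 and Med12l, the paralogs of Cdk8 and Med12, had log2 differences of 0.08 and -0.01. Of the 7 module genes, 2 were above 0 and 5 below, with a median of -0.02, beside 0.00395 over all genes tested. Of 26 genes of the Mediator core, 14 were above 0 and 12 below, with a median of 0.06. Med7, a subunit of the middle part of the core, was the core gene with the smallest p, at 7.98, 6.64 and 7.32 FPKM in WT and 5.72, 6.62 and 6.22 FPKM in cKO hearts. All 3 cKO values lay below the 3 WT values, by a narrow margin (log2 difference -0.21, 95% interval -0.43 to 0.01).

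**Figure D1:**
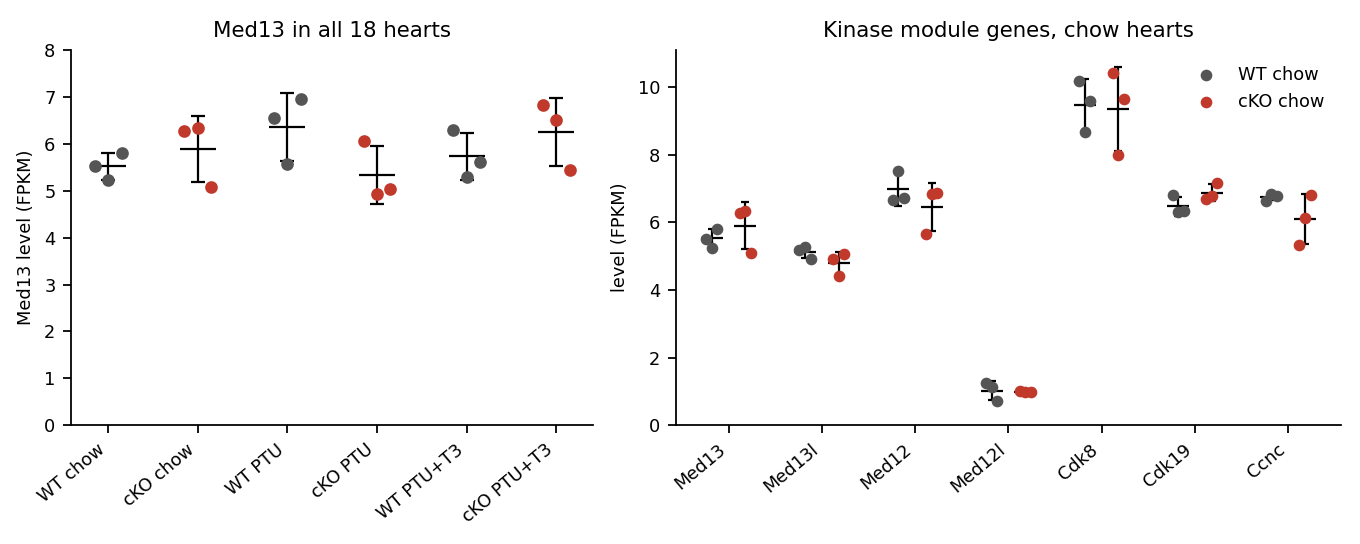
Left, Med13 level in FPKM (y axis) in each of the 18 hearts by genotype and treatment; right, levels of the 7 kinase module genes in FPKM in the 3 WT (grey) and 3 cKO (red) chow hearts. Points are libraries, long bars are group means and whiskers 1 SD; on chow the WT and cKO points overlap for all 7 genes.

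No gene passed the test on chow. Of 12587 genes tested, limma called 0 (0%) at an adjusted p under 0.05, and the smallest adjusted p was 0.972. At an unadjusted p under 0.05 there were 394 genes (3.13%), 188 higher (1.49%) and 206 lower (1.64%) in cKO hearts. In the authors' deposited table for the same comparison, 80 of the 12045 genes they tested were marked significant (0.664%). The groups did not overlap in 1071 genes (8.51%), 517 higher (4.11%) and 554 lower (4.4%). Differences were small: the middle 90% of genes lay between -0.23 and 0.24 on the log2 scale, and 19 genes reached a size of 1, of which 8 did not overlap. The median standard error was 0.124, which puts the 95% interval of a typical gene at 0.262 on either side of its estimate. A log2 difference of this kind, on log2(FPKM + 1), makes differences of weakly expressed genes look smaller than their ratio of levels.

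**Figure D2:**
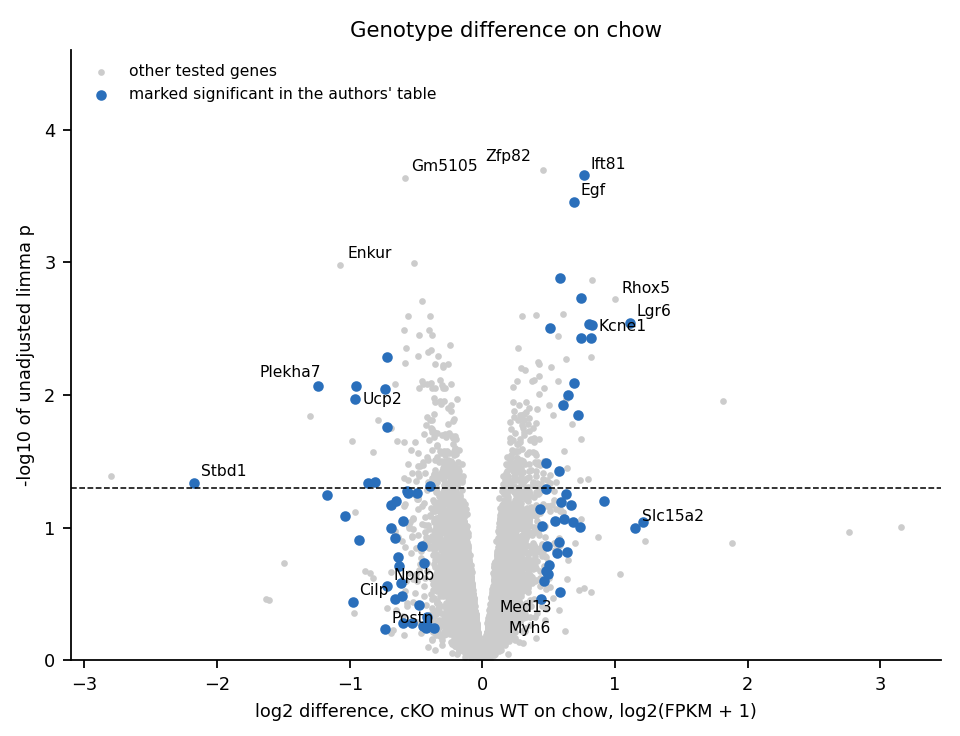
Each point is 1 of the 12587 tested genes: x, log2 difference on log2(FPKM + 1), cKO minus WT on chow; y, -log10 of the unadjusted limma p; the dashed line marks the unadjusted threshold. Genes marked significant in the authors' deposited table (blue) spread from the top of the plot to its base, and Med13 and Myh6 lie near 0.

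The 20 genes with the smallest p are described as the strongest differences in these 6 hearts, with the limit that none passed. Ift81 and Enkur are genes of cilia. Ift81, part of the intraflagellar transport train that builds cilia (chromosome 5, 122550204 to 122614518), was measured at 17.5, 20.2 and 18.3 FPKM in WT and 29.6, 34.5 and 33.1 FPKM in cKO hearts. The 3 cKO hearts were all higher, with a wide gap between the groups (log2 difference 0.76, 95% interval 0.42 to 1.11; limma adjusted p = 0.972). Enkur, a protein of sperm and motile cilia that binds calcium channels, went the other way, at 4.65, 3.31 and 2.82 FPKM in WT and 1.01, 0.528 and 2.27 FPKM in cKO hearts (log2 difference -1.07, 95% interval -1.64 to -0.50). Its groups did not overlap, and cKO chow heart 3 came close to the lowest WT heart.

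Signalling genes made up another share of these 20. Egf, the precursor of epidermal growth factor, was measured at 2.61, 3.56 and 1.99 FPKM in WT and 5.84, 4.95 and 4.10 FPKM in cKO hearts, with no overlap (log2 difference 0.69, 95% interval 0.37 to 1.02). Lgr6, a receptor for R-spondins that strengthens Wnt signalling, stood at 1.90, 2.28 and 1.22 against 6.09, 7.39 and 2.60 FPKM, again all higher in cKO hearts with cKO chow heart 3 nearest to WT. Drd2, a dopamine receptor, was measured at 0.566, 0.685 and 0.299 FPKM in WT and 1.85, 1.89 and 1.32 FPKM in cKO hearts. Outside chow it reached 1 FPKM only in WT PTU heart 1 (1.31 FPKM) and cKO PTU heart 1 (1.05 FPKM). Drd2 thus passed the filter on low values only through the cKO chow hearts, where it was high. Cd28, the costimulatory receptor of T cells, was measured at 1.43, 1.65 and 1.19 against 2.87, 2.91 and 2.14 FPKM. Only 1 of the 16 lymphocyte markers, the B cell gene Cd79b, passed the filter on low values. The summed level of the 14 markers with values was 2.62 to 5.43 FPKM in WT and 3.60 to 5.18 FPKM in cKO hearts. Tbx3, a transcription factor of the conduction system, stood at 3.21, 3.20 and 2.65 FPKM in WT and 4.94, 5.41 and 3.91 FPKM in cKO hearts, without overlap. Of the 7 tested markers of the conduction system, 3 were above 0 and 4 below, with a median of -0.06.

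Enzymes and cell-biological genes followed. Car2, a cytosolic carbonic anhydrase, was measured at 2.41, 1.34 and 2.10 FPKM in WT and 5.12, 4.01 and 2.81 FPKM in cKO hearts. Tesc, a calcium-binding regulator of the sodium-proton exchanger, was the most abundant of the 20 at 95.8, 155 and 155 FPKM in WT and 226, 264 and 209 FPKM in cKO hearts (log2 difference 0.81, 95% interval 0.32 to 1.29). Erp29, a chaperone of the endoplasmic reticulum, differed little in size but without overlap, at 52.0, 48.4 and 58.5 against 62.4, 65.9 and 67.2 FPKM. Cideb, a lipid droplet protein, was lower in cKO hearts at 3.97, 7.05 and 4.76 against 7.29, 9.16 and 7.74 FPKM. The smallest p of all belonged to Zfp82, a zinc finger gene, at 1.21, 1.43 and 1.28 FPKM in WT and 2.19, 2.45 and 1.88 FPKM in cKO hearts (log2 difference 0.46, 95% interval 0.26 to 0.66; limma adjusted p = 0.972). The X-linked homeobox gene Rhox5 was higher in all 3 cKO hearts (5.16, 7.84 and 4.54 FPKM) than in WT hearts (3.07, 1.82 and 2.32 FPKM). The remaining genes of the 20 were Gm5105, Gm14295, Erich1 and Gpatch1 with lower values, and Gm16062, Zscan25 and Lad1 with higher values in cKO hearts, between -0.58 (Gm5105) and 0.82 (Lad1) on the log2 scale. Gm5105 and Gm14295 belong to families of near-identical copies among which reads may have been split.

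Stbd1 and Baiap2l1 were among the 19 genes with a log2 difference of at least 1 in size, and each stood at one of 2 levels in every heart. Stbd1, which anchors glycogen to membranes (chromosome 5, 92603041 to 92606579), was measured at 14.8, 10.8 and 0.908 FPKM in WT and 0.623, 0.715 and 0.390 FPKM in cKO chow hearts (log2 difference -2.18, 95% interval -4.31 to -0.04). WT chow heart 3 stood with the 3 cKO hearts at the low level. Baiap2l1, which links membrane curvature to actin (chromosome 5, 144264526 to 144358112), was chosen after its values were seen. Its levels were 7.42, 7.69 and 42.0 FPKM in WT and 46.5, 52.4 and 53.0 FPKM in cKO hearts (log2 difference 1.81, 95% interval 0.49 to 3.14). Here too WT chow heart 3 stood with the cKO hearts. Among all 18 libraries Stbd1 was below 1 FPKM in 6, at most 0.956, and at 5.27 FPKM or more in the other 12. Outside chow, the low level was found in 1 WT heart (0.537 FPKM) and 1 cKO heart (0.956 FPKM) given PTU with T3. Baiap2l1 was at 37.5 FPKM or more in 5 libraries and at 7.69 FPKM or less in 13, and the fifth high library was a cKO heart given PTU with T3. The 2 levels thus followed neither genotype nor treatment across the study, while all 3 cKO chow hearts shared the same level of each gene.

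The genes marked significant in the authors' deposited table were split evenly, 40 lower and 40 higher in cKO hearts. For 78 of them, 39 each way, a limma value was available, and limma called 0. At an unadjusted p under 0.05 there were 10 of the lower 39 and 16 of the higher 39. Over all tested genes the shares were 1.64% lower and 1.49% higher. Groups did not overlap in 5 of the lower and 11 of the higher, beside 4.4% and 4.11% of all tested genes. These counts are raised by the authors' choice of the genes from the same hearts. All 78 had the sign that the authors' deposited table gives, which the choice of the genes from the same hearts fixes. The other 2, Rab6b and Scgb1a1, were above 1 FPKM in a single heart each (3.77 FPKM in cKO chow heart 3 and 4.28 FPKM in WT chow heart 3).

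Of the lower 40, 6 (15%) belonged to the collagen and matrix list (Col14a1, Col8a1, Comp, Ctgf, Fmod and Postn), which holds 33 of the 12587 tested genes (0.262%) and was drawn up with these calls known. None of the higher 40 did. Postn, the matrix protein periostin made by activated fibroblasts, had group values of 53.4 FPKM in WT and 23.9 FPKM in cKO hearts in the authors' deposited table (q = 0.00987). By heart it was measured at 29.7, 17.3 and 114 FPKM in WT and 25.3, 15.7 and 30.8 FPKM in cKO. WT chow heart 3 alone lay far above the rest, and the other hearts of both genotypes shared a range (log2 difference -0.74, 95% interval -3.57 to 2.10). Comp, a cartilage matrix protein, showed the same arrangement at 4.98, 3.17 and 21.3 against 4.38, 3.73 and 7.02 FPKM, as did Cilp (4.97, 3.42 and 20.4 against 4.52, 1.19 and 5.13 FPKM) and Fmod, the collagen-binding fibromodulin (1.93, 1.19 and 8.79 against 1.89, 1.68 and 2.18 FPKM). Without WT chow heart 3 the log2 differences of Postn, Comp and Fmod were 0.02, 0.24 and 0.20, and that of Cilp was -0.29. Ctgf, a growth factor of fibrosis, kept a lower value in 2 cKO hearts, at 97.8, 54.5 and 209 against 40.3, 39.4 and 99.5 FPKM (log2 difference -0.93, 95% interval -2.15 to 0.29).

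Nppb, the natriuretic peptide released by stretched cardiomyocytes, varied between hearts in the same way. It was measured at 462, 187 and 1118 FPKM in WT and 161, 198 and 676 FPKM in cKO hearts, and heart 3 of each genotype was the highest of its group. Nppa, the atrial peptide, stood at 2441, 826 and 7637 against 1093, 1277 and 2827 FPKM, and Ankrd1, a stretch-responsive sarcomere protein, at 1750, 709 and 3231 against 796, 788 and 2872 FPKM. None of these 3 genes separated the genotypes.

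Casq1, Ucp2 and Slc17a7, also among the lower 40, had a different arrangement, with 2 low cKO hearts and cKO chow heart 3 near the WT level. Casq1 was the single member of the calcium handling list among the 40 (2.5%), a list that holds 22 of the 12587 tested genes (0.175%). Over that list 11 genes were above 0 and 11 below. Casq1, the skeletal calsequestrin, was measured at 61.3, 35.4 and 78.1 FPKM in WT and 14.3, 20.9 and 60.9 FPKM in cKO hearts (log2 difference -1.04, 95% interval -2.23 to 0.15). Ucp2, a mitochondrial carrier of the uncoupling protein family, stood at 209, 174 and 135 against 67.7, 62.0 and 159 FPKM (log2 difference -0.95, 95% interval -1.62 to -0.28). The vesicular glutamate transporter Slc17a7 followed at 42.4, 18.8 and 39.3 against 13.1, 5.60 and 31.7 FPKM. In each of these, cKO chow heart 3 lay within or close to the WT range. Plekha7, an adherens junction protein, was lower in all 3 cKO hearts at 6.31, 6.90 and 2.90 against 16.4, 9.30 and 15.6 FPKM (log2 difference -1.24, 95% interval -2.11 to -0.37). Tuft1 was also lower in all 3, at 0.610, 0.586 and 0.777 against 2.87, 1.53 and 1.08 FPKM. Casq2, the cardiac calsequestrin, was not marked in the authors' deposited table, yet its groups did not overlap, at 681, 547 and 632 FPKM in WT and 520, 509 and 420 FPKM in cKO hearts (log2 difference -0.36, 95% interval -0.62 to -0.10).

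Of the higher 40, 2 (5%) belonged to the list of ion channels and pumps, Kcne1 and Kcnip2. That list holds 28 of the 12587 tested genes (0.222%) and was chosen with earlier results of these data known. Kcne1, the subunit that slows the repolarising current with Kcnq1, was measured at 1.44, 0.818 and 2.75 FPKM in WT and 2.64, 5.27 and 3.04 FPKM in cKO hearts, with an overlap at WT chow heart 3. Kcnip2, which brings the transient outward channel to the surface, stood at 87.3, 96.3 and 60.8 against 148, 144 and 96.4 FPKM, with no overlap and a narrow gap (log2 difference 0.66, 95% interval -0.05 to 1.38). Adra1a, the alpha-1A adrenergic receptor, was highest in 2 cKO hearts and lowest in cKO chow heart 3, at 2.53, 2.51 and 2.11 against 4.97, 6.52 and 1.77 FPKM. Pfkfb1, a bifunctional enzyme that sets the level of a glycolysis activator, spread as widely within as between genotypes, at 3.70, 7.33 and 1.51 against 12.1, 7.66 and 1.93 FPKM. Armc2 and Amph were higher in all 3 cKO hearts, Armc2 at 14.1, 10.2 and 10.6 against 6.93, 9.01 and 4.83 FPKM and Amph at 1.41, 1.76 and 0.494 against 0.283, 0.339 and 0.236 FPKM. Slc15a2, Ush1c and Erdr1 overlapped, with log2 differences of 1.15, 0.92 and 1.21. Erdr1 has copies on both sex chromosomes that counting may not separate.

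**Figure D3:**
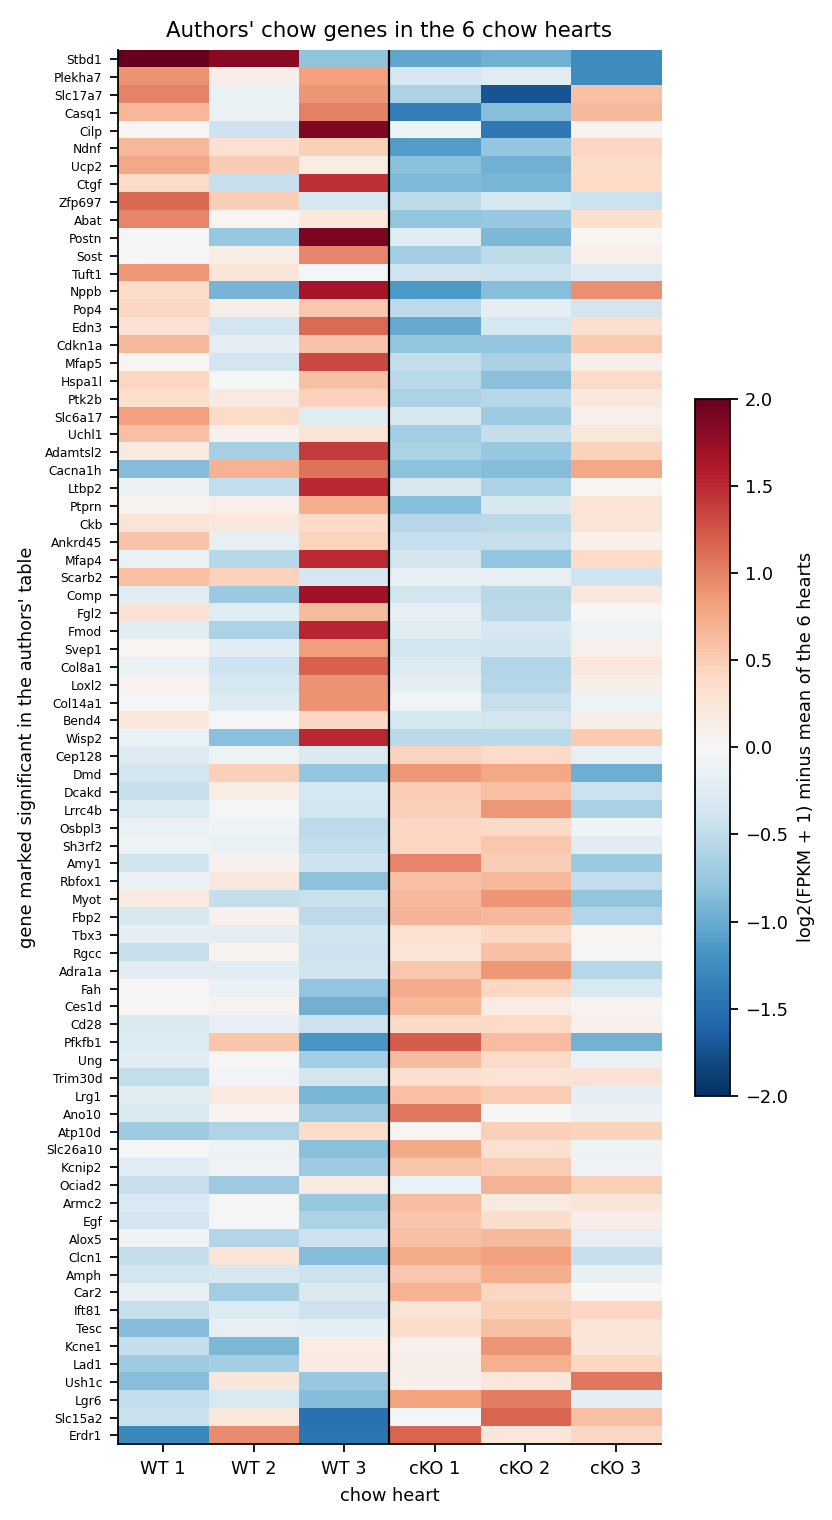
Rows are the 78 tested genes marked significant in the authors' deposited table, lower genes first; columns are the 6 chow hearts; colour is log2(FPKM + 1) minus the mean of the 6 hearts, from -2 (blue) to 2 (red). WT heart 3 is the deepest red in Postn, Cilp, Comp and Fmod, and in Casq1, Ucp2 and Slc17a7 cKO heart 3 is redder than cKO hearts 1 and 2.

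WT chow heart 3 was at the extreme of many genes marked in the authors' deposited table. It was the highest of the 6 in 26 of the 39 lower genes, beside 35.3% of all genes below 0, and the lowest in 21 of the 39 higher genes, beside 37.8% of all genes above 0. Without it, the median of the lower genes moved from -0.65 to -0.43 and 33 of 39 stayed below 0, while the median of the higher genes moved from 0.62 to 0.48 and 39 of 39 stayed above 0. Without cKO chow heart 3 the medians were -0.89 and 0.86. The first principal component of the 6 hearts, with 41.9% of the variance, placed WT hearts at 1.80, -9.05 and 23.5 and cKO hearts at -11.6, -16.2 and 11.6. Heart 3 of each genotype lay at the same end, and Gdf15, Nppb and Nppa had its largest loadings. Gdf15, a secreted stress signal, ran from 0.519 FPKM (cKO chow heart 1) to 12.9 FPKM (cKO chow heart 3). Of the 30 largest loadings at that end 13 were among the authors' lower genes, and of the 30 at the other end 10 were among their higher genes. Over all 12587 tested genes, 39 are among their lower and 39 among their higher genes. The component and the authors' genes come from the same 6 hearts, so some of this sharing was fixed in advance.

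Markers of atrial muscle and fibroblasts also varied between hearts. Over the 15 atrial markers the summed level was 1580 to 8986 FPKM in WT and 2009 to 3693 FPKM in cKO hearts, with WT chow heart 3 highest. Nppa made up most of that sum, and the other 14 markers together stood at 1029, 753 and 1349 FPKM in WT and 916, 817 and 865 FPKM in cKO hearts. Myl7, the atrial light chain, was measured at 38.1, 21.3 and 172 FPKM in WT and 53.2, 106 and 18.9 FPKM in cKO hearts, and Sln, the atrial regulator of the calcium pump, at 7.93, 11.6 and 63.4 against 11.7, 26.5 and 8.89 FPKM. Myl7 was thus high in WT chow heart 3 and low in cKO chow heart 3, the hearts that shared an end of the first component. Over the 14 fibroblast markers the summed level was 1843 to 2517 FPKM in WT and 1661 to 2212 FPKM in cKO hearts. Of the 9 markers of thymus and lymph node, Rag1, Rag2, Dntt and Foxn1 were below 0.05 FPKM in all 6 hearts and Ptcra and Themis at most 0.0850 and 0.0626 FPKM. The summed level of the 9 was 50.1 to 62.0 FPKM in WT and 54.7 to 59.99 FPKM in cKO hearts, most of it from the chemokine gene Ccl21a (46.4 to 58.7 FPKM). The part of atrial tissue or fibroblasts in the differences was not tested. In bulk tissue fewer cells of a type and less RNA per cell cannot be told apart.

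Genes that thyroid hormone induces in heart gave no call on chow. Of 21 tested, 16 were above 0 and 5 below, with a median log2 difference of 0.12 beside 0.00395 over all genes, and limma called 0. Ucp2, described above, had the smallest p of this list and its lowest log2 difference, -0.95 (limma adjusted p = 0.999). Myh6, the fast myosin heavy chain, was measured at 3719, 3603 and 2291 FPKM in WT and 4083, 3732 and 2728 FPKM in cKO hearts. Heart 3 was lowest in both genotypes, and the log2 difference of 0.15 had a 95% interval of -0.64 to 0.93. Atp2a2, the pump that returns calcium to the sarcoplasmic reticulum, stood at 3082, 3178 and 1818 against 4194, 3670.0 and 2409 FPKM, again with heart 3 lowest in each group (log2 difference 0.35, 95% interval -0.22 to 0.92). Hr, a corepressor that the hormone induces, stood at 8.03, 7.02 and 6.14 against 5.44, 5.36 and 7.04 FPKM, and Thrsp at 61.8, 43.8 and 58.7 against 37.9, 41.7 and 46.2 FPKM. Both overlapped. The median of the 21 genes was -0.02 without WT chow heart 3, 0.26 without cKO chow heart 3 and 0.13 without both.

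Genes repressed by the hormone gave no clearer picture, with 6 of 10 above 0 and a median of 0.06. Myh7, the slow myosin, was measured at 181, 103 and 124 FPKM in WT and 196, 113 and 188 FPKM in cKO hearts, and Pln, the inhibitor of the calcium pump, at 3171, 3300.4 and 2626 against 4057, 4048 and 2780.0 FPKM. Reads of Myh7 and of its antisense transcript cannot be told apart, since strand use in counting is not stated. The receptors overlapped: Thra was measured at 30.5, 30.6 and 28.5 against 28.1, 31.3 and 32.9 FPKM, and Thrb at 6.75, 6.03 and 4.21 against 6.59, 5.64 and 4.25 FPKM. Their intervals were -0.15 to 0.23 for Thra and -0.34 to 0.27 for Thrb. Rxra, the shared partner of nuclear receptors, was slightly higher in all 3 cKO hearts, at 20.9, 20.8 and 20.7 FPKM against 19.0, 19.6 and 17.3 FPKM (log2 difference 0.15, 95% interval -0.04 to 0.35). Of 13 genes for receptors, transport and cofactors 7 were above 0 and 6 below, with a median of 0.01.

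Of 6 metabolic lists, 5 had a median above 0 on chow and 1, lipid and cholesterol synthesis, a median below 0. For fatty acid oxidation 24 of 25 genes were above 0, with a median of 0.17, and none had an unadjusted p under 0.05. Hadhb, a subunit of the mitochondrial trifunctional protein, was measured at 1363, 1297 and 961 FPKM in WT and 1569, 1577 and 1089 FPKM in cKO hearts, where heart 3 of each genotype was the lowest. Acot1, an acyl-CoA thioesterase, had the largest difference of the list at 4.75, 7.68 and 3.79 against 14.7, 7.73 and 4.81 FPKM. Cpt1a, the liver form of the carnitine transferase that admits fatty acids to mitochondria, was the single member below 0 (log2 difference -0.14). For lipid uptake and storage 19 of 19 were above 0 with a median of 0.16, among them Lpl, the lipase that frees fatty acids from blood lipids, at 1299, 1358 and 966 against 1757, 1650.0 and 1116 FPKM. For oxidative phosphorylation 41 of 43 were above 0 with a median of 0.10, and for the citric acid cycle and amino acid breakdown 21 of 24 with a median of 0.06. Genes of one pathway share their hearts and are not independent. Without WT chow heart 3 these 4 medians were 0.04, 0.08, 0.01 and -0.07. Without cKO chow heart 3 they were 0.35, 0.27, 0.18 and 0.18, and without heart 3 of both genotypes 0.22, 0.20, 0.08 and 0.07. The 10 markers of ventricular muscle moved with them, all above 0 with a median of 0.18, which became 0.07, 0.25 and 0.16 under the same removals. The part of cell makeup in the metabolic differences was not tested. Summed over all genes with values, FPKM was 622048, 642341 and 588893 in WT and 672665, 685701 and 607097 in cKO hearts. Heart 3 was lowest in each genotype, and the main fit did not scale these totals. Their part in the list medians was not tested. For glycolysis and glucose uptake 23 of 30 were above 0 with a median of 0.11. Pfkp, a phosphofructokinase, had the smallest p of that list and was one of the 7 below 0 (14.4, 13.3 and 18.7 in cKO against 20.7, 17.9 and 24.1 FPKM in WT hearts). For lipid and cholesterol synthesis 8 of 20 were above 0 and 12 below, with a median of -0.09.

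The collagen and matrix list lay on the other side, with 31 of 33 genes below 0 and a median of -0.26. Its summed level was 1797, 1619 and 2888 FPKM in WT and 1779, 1577 and 2049 FPKM in cKO hearts, heart 3 highest in each genotype. Col1a1 was measured at 27.1, 23.6 and 66.6 FPKM in WT and 29.97, 20.1 and 31.3 FPKM in cKO hearts, and Col3a1 at 54.3, 50.5 and 127 against 59.2, 39.4 and 67.2 FPKM. Spp1, secreted osteopontin, was one of the pair above 0, with 5.22 FPKM in cKO chow heart 1 and 0.868 FPKM in cKO chow heart 2. Without WT chow heart 3 the median of the list was 0.04, without cKO chow heart 3 it was -0.35, and with heart 3 of each genotype left out, which holds the most matrix RNA of its group, it was -0.05. Of the 15 stress and fetal genes 11 were below 0, with a median of -0.29. That median was 0.02, -0.41 and -0.18 under the same removals. The cytosolic ribosomal proteins were less dependent on that heart, with 30 of 32 above 0, a median of 0.08 and 0.10 without it.

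Across the other lists limma called 0 members as well. Medians over all lists with at least 7 tested members lay between -0.29 (stress and fetal genes) and 0.18 (ventricular markers). Some single members with an unadjusted limma p under 0.05 are named here, chosen after their values were seen. Over all tested genes 3.13% were below that threshold. Irx4 was 1 of 19 cardiac transcription factors tested and Rgs6 1 of 22 adrenergic and muscarinic genes. Kcnj8 was 1 of 12 smooth muscle and pericyte markers and Dbh 1 of 6 Schwann cell and neuron markers. Each was the only member of that list below the threshold. Irx4, a ventricular transcription factor, stood at 14.9, 14.7 and 13.5 FPKM in WT and 17.1, 17.0 and 16.1 FPKM in cKO hearts. Rgs6, which shortens muscarinic signals, stood at 15.6, 14.04 and 17.4 against 11.8, 9.28 and 14.8 FPKM. Kcnj8, a pericyte potassium channel gene, stood at 17.3, 22.9 and 16.9 against 25.5, 25.0 and 20.5 FPKM, and Dbh, the noradrenaline-synthesising enzyme of sympathetic nerves, at 1.51, 1.43 and 1.22 against 2.36, 2.40 and 3.25 FPKM. Irx4 and Dbh had no overlap, and Rgs6 and Kcnj8 overlapped at 1 heart. Of the 6 tested markers of Schwann cells and neurons, Dbh among them, 4 were above 0 and 2 below, the lowest being Uchl1 at -0.63.

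**Figure D4:**
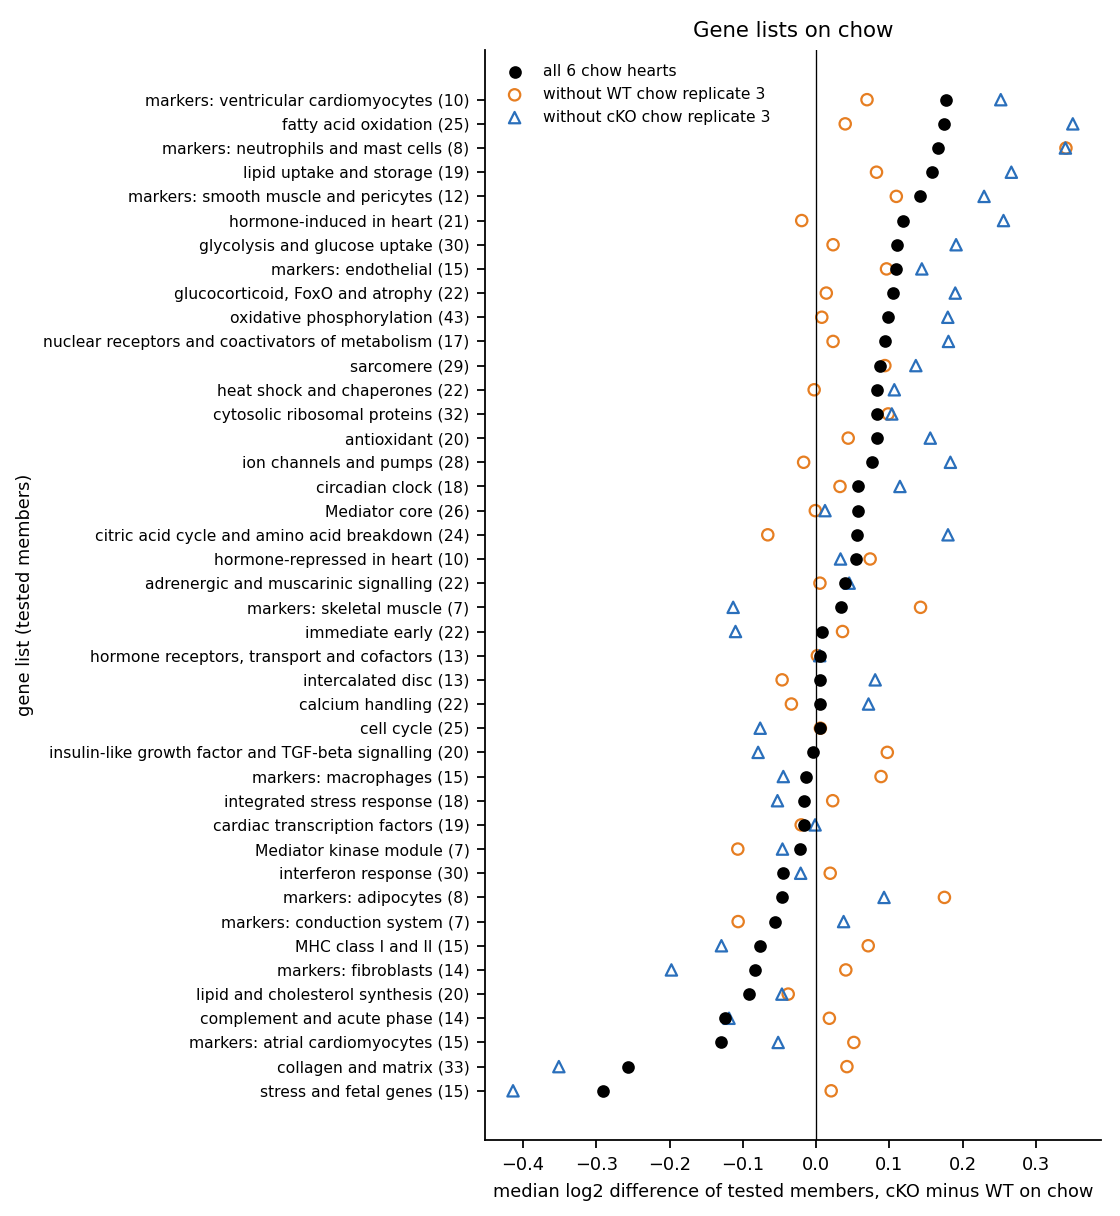
Median log2 difference on log2(FPKM + 1), cKO minus WT on chow (x axis), of each gene list with at least 7 tested members (y axis, number tested in brackets), with all 6 chow hearts (black), without WT chow heart 3 (orange) and without cKO chow heart 3 (blue). Without WT chow heart 3 fatty acid oxidation moves from 0.17 to 0.04 and collagen and matrix from -0.26 to 0.04.

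The same genotype contrast was available in 12 hearts that the chow comparison does not use, 6 on PTU and 6 given PTU with T3. There limma called 0 genes on PTU, with 491 at an unadjusted p under 0.05 (3.9%), and 0 with T3, with 434 (3.45%). Across the 12587 genes the log2 differences on chow correlated with those on PTU at -0.31 and with those under T3 at 0.22. These values describe the same genes in 1 fit and carry no test. Without the heart highest in matrix genes of each group they were -0.29 and 0.03. The genes marked in the authors' deposited table for chow showed the opposite sign on PTU in 33 of the 39 lower and 33 of the 39 higher genes, with medians of 0.45 and -0.36. With T3 the sign was the same in 37 of 39 and 30 of 39, with medians of -0.38 and 0.17. Single hearts stood apart in matrix RNA there too: the summed level of the matrix list was 4018 FPKM in cKO PTU heart 2, beside 1693 and 1681 FPKM in the other 2, and 3765.0 FPKM in WT T3 heart 2, beside 1548 and 1806 FPKM. Postn stood at 411 FPKM in the first and 336 FPKM in the second. Without the heart highest in matrix genes of each group the sign on PTU was opposite in 34 and 33 of 39, with medians of 0.35 and -0.35, and with T3 it was the same in 26 and 24 of 39, with medians of -0.10 and 0.03. Of the 80 chow genes, 24 were also marked in the authors' deposited table for PTU, among 117 there (0.95% of those tested), and 0 in the same direction. In the authors' deposited table for T3, 20 of the 80 were marked again, among 121 (0.991%), and 19 in the same direction.

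**Figure D5:**
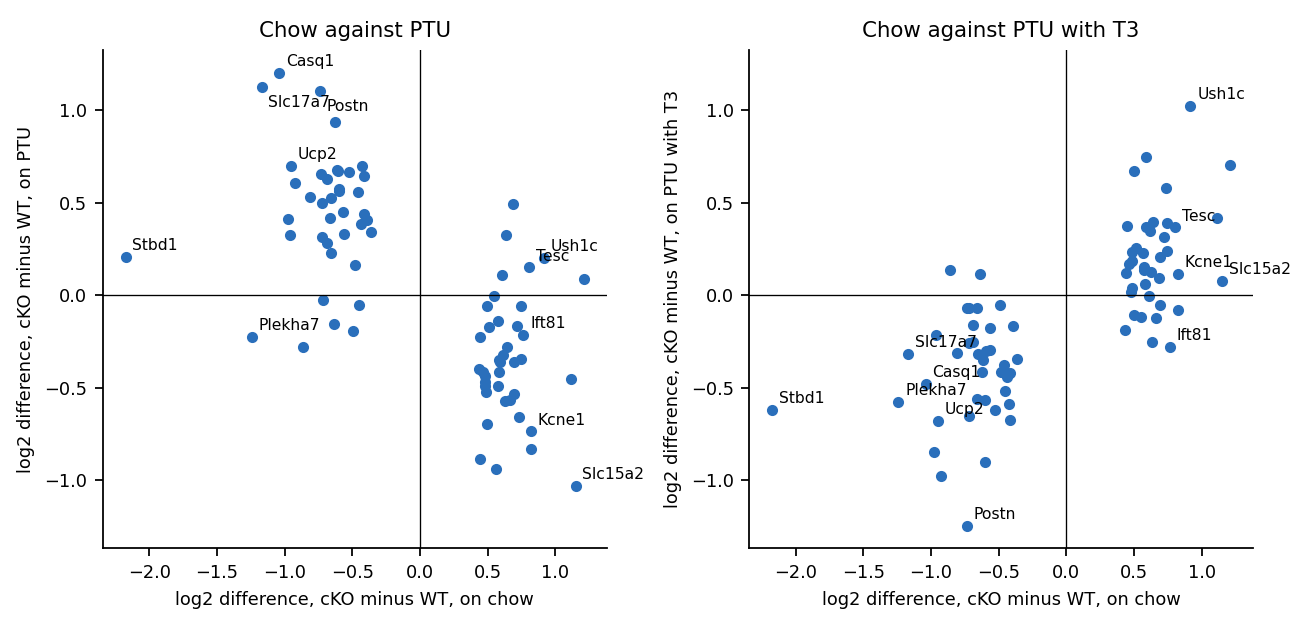
Each point is 1 of the 78 tested genes marked in the authors' deposited table for chow: x, log2 difference cKO minus WT on chow; y, the same difference on PTU (left) or on PTU with T3 (right), both on log2(FPKM + 1). On PTU most points lie in the quadrants of opposite sign (33 of 39 each way), and with T3 most lie in the quadrants of like sign (37 of 39 and 30 of 39).

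Whether the genotype difference on chow itself differed from that under another treatment was tested as a contrast in the same fit. Against PTU limma called 0 genes, with 805 at an unadjusted p under 0.05 (6.4%) and a smallest adjusted p of 0.739. Against T3 it called 0, with 294 (2.34%) and a smallest adjusted p of 0.742. Enkur, with the smallest p against PTU, was lower in cKO hearts on chow and higher in cKO hearts on PTU, where it stood at 2.96, 5.65 and 3.21 FPKM in WT and 8.41, 6.10 and 9.79 FPKM in cKO (difference of log2 differences -1.97, SE 0.377). Lad1, an anchoring filament protein, went from a higher value in cKO hearts on chow to a lower one on PTU, at 9.04, 5.18 and 7.72 against 3.73, 2.58 and 4.66 FPKM there (1.66, SE 0.332). Egf stood on PTU at 3.73, 3.16 and 4.57 FPKM in WT and 3.11, 2.20 and 2.95 FPKM in cKO hearts, also the reverse of chow (1.05, SE 0.217). Against T3 the smallest p belonged to Xrcc2, a DNA repair protein. It overlapped on chow and with T3 stood at 3.04, 3.43 and 4.38 FPKM in WT and 7.87, 6.33 and 7.11 FPKM in cKO hearts (difference -1.02, SE 0.199). Tmem52 and 5730408K05Rik followed, with differences of -1.22 and 1.51. The genes of both contrasts were named for their small p there, a choice that favours a large change between treatments. Enkur, Lad1 and Egf were also among the 20 smallest p on chow.

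Ift81, whose groups did not overlap on chow, overlapped between genotypes under both other treatments. On PTU it was measured at 27.0, 24.2 and 33.9 FPKM in WT and 21.2, 21.96 and 29.9 FPKM in cKO hearts, and with T3 at 16.5, 11.8 and 13.6 against 9.75, 10.1 and 14.3 FPKM. The difference on chow exceeded that on PTU by 0.98 (SE 0.228; limma adjusted p = 0.764) and that with T3 by 1.05 (SE 0.228; adjusted p = 0.763). Ift81 was named for its small p on chow, a choice that favours a larger difference there than under the other treatments. The sign of the Ucp2 difference varied with treatment. On PTU its cKO hearts stood at 45.5, 62.8 and 42.0 FPKM above WT hearts at 41.2, 31.7 and 20.7 FPKM. With T3 they stood at 62.0, 82.4 and 87.1 FPKM, below WT hearts at 130, 135 and 105 FPKM, as 2 of the 3 did on chow. The difference on chow minus that on PTU was -1.65 (SE 0.445; limma adjusted p = 0.764), and minus that with T3 it was -0.27 (SE 0.445; adjusted p = 0.999).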

How the data were processed

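Per the labels' protocols, library preparation from polyA RNA of frozen hearts, isolated in Trizol, used a TruSeq kit (V2). The sources used here do not give the strand used in counting. Bowtie2, Cufflinks and the mm10 build are listed, without versions, in the submitters' processing notes. The authors deposited FPKM per gene and library (24341 genes) and, per the file headers, tables of pairwise comparisons with group FPKM, p-values and q-values; these were copied and not recomputed.

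The filter kept the 12587 genes that reached 1 FPKM in 3 or more of the 18 libraries. Cacna2d1 and Trip10, with 5 failed cells, all in chow libraries, were left out. Values were analysed as log2(FPKM + 1) with limma 3.58.1 in R 4.3.3: 6 group means over all 18 libraries, 12 residual degrees of freedom, trended and robust prior. Benjamini-Hochberg adjustment ran within each of 5 comparisons, with calls at an adjusted p under 0.05. The fit was tested on simulated data. FPKM carries no read totals, so no counting intervals are given. Positions are from the GENCODE annotation of GRCm38 (mm10).

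Genes were named by rule: Med13 and a panel of 13 further genes, called genes (none), the 20 smallest p on chow when fewer than 20 are called, and the 3 smallest p of each difference between treatments. Added to these were the 8 largest differences each way and the list members among the genes of the authors' table, and genes chosen after their values were seen: Baiap2l1, Ptprn2, Casq2, Med7, Cdk19, Med12l, Tuft1, Armc2, Hr, Thrsp, Rxra, Pfkp, Irx4, Rgs6, Kcnj8, Dbh, Lpl, Hadhb, Acot1, Cpt1a, Col1a1, Col3a1, Spp1, Gdf15, Ankrd1, Myl2, Myl4, Myl7, Sln, Cd36, Ppargc1a, Fabp4, Cpt1b, Nr1d1 and Ndnf, the Y-linked genes and the red cell and neutrophil genes. The comparison, the 48 gene lists (15 of them cell type markers) and the rules were chosen with earlier results of these data known. Alternatives were another pseudocount, 2 other filters, median and quantile scaling, a fit without trended or robust prior, sample weights, the 6 chow libraries alone and each library left out. One more, leaving out the heart highest in matrix genes of each group, was chosen after seeing the data.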

Additional observations from a re-analysis of the deposited data

How the results depend on the processing

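The count of genes called on chow was 0 under every alternative of scale, filter, prior or weights that kept all 6 chow libraries, and 0 to 1 when 1 library was left out (Spink4, without cKO chow heart 3). Leaving out 1 library gave 0 to 1 on PTU, 0 to 0 with T3, 0 to 2 for the difference between chow and PTU, and 0 to 0 for that between chow and T3. Without the filter on low values 4 genes were called on PTU and 1 in the difference between chow and PTU. With the heart highest in matrix genes of each group left out, 3 were called on chow (Baiap2l1, Cenpf and Gm11627), 1 with T3, 8 in the difference from PTU and 1 in that from T3. This removal took out WT chow heart 3, where Baiap2l1 stood at 42.0 FPKM with the cKO chow hearts. The WT chow hearts kept stood at 7.42 and 7.69 FPKM, so the call of Baiap2l1 on chow rests on that removal. The count at an unadjusted p under 0.05 on chow ran from 225 with a mean of at least 5 FPKM to 927 with sample weights. No paired analysis was possible because each library title carries its own number and the groups share none.

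Of 914 values of named genes under alternatives that left out no single library, 900 kept direction and side of the threshold and 13 reversed, none of them called. The remaining 1, Baiap2l1, was newly called with the hearts highest in matrix genes left out, WT chow heart 3 among them. The reversed log2 differences were 0 for Myl2 and 0.015 for Med12l under quantile scaling, and with sample weights -0.0057 for Thra, 0.38 for Myl7, 0.12 for Sln and 0.0748 for Myl4. With the hearts highest in matrix genes left out they were -0.0418 for Thra, 0.14 for Fmod, 0.0147 for Comp, 0.0135 for Ddx3y, 1.37 for Myl7, 0.81 for Sln and 0.80 for Myl4. The cause was not tested.

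Leaving out 1 library reversed 34 of 630 values. The genes concerned ranged from -0.0968 to 0.076 (Cdk8), -0.0796 to 0.32 (Myh6), -0.00988 to 0.10 (Thra), -0.20 to 0.11 (Thrb), -1.45 to 0.15 (Nppa), -0.24 to 0.84 (Acta1), -1.30 to 0.0206 (Postn), -0.88 to 0.20 (Fmod), -0.97 to 0.24 (Comp), -0.95 to 0.0887 (Mfap4), -0.74 to 0.0639 (Col8a1), -0.76 to 0.72 (Myl7), -0.92 to 0.51 (Sln), -0.85 to 0.53 (Myl4), -1.003 to 0.13 (Ankrd1), -0.0702 to 0.0403 (Ddx3y), -0.19 to 0.0498 (Uty), -0.00297 to 0.24 (Cd36), -0.0694 to 0.35 (Ppargc1a), -0.13 to 0.0707 (Med12l), -0.16 to 0.81 (Retnlg), -0.39 to 1.65 (S100a8), -0.66 to 0.0714 (Col1a1), -0.62 to 0.042 (Col3a1) and -0.22 to 0.65 (Spp1). Fits that left a group with fewer hearts assume that its spread is that of the others. The 3 hearts in each group limit the precision, and FPKM tables give no depth.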

Other observations

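The blood genes differed between single hearts. S100a8, an alarmin of neutrophils, was measured at 1.24, 0.889 and 3.87 FPKM in WT and 16.1, 0.01 and 3.32 FPKM in cKO chow hearts, and Retnlg, another neutrophil gene, at 3.75 FPKM in cKO chow heart 1 and under 1 FPKM in the other 5. The summed neutrophil and mast cell markers stood at 38.0 FPKM in cKO chow heart 1 and between 4.94 and 13.1 FPKM in the other 5 hearts. Hba-a2, an alpha globin with a near-identical copy, was at 27.7 and 26.1 FPKM in cKO chow hearts 2 and 3 and under 0.1 FPKM in the other 4, while the summed red cell markers ran from 2027 to 3470.1 FPKM in cKO and 2064 to 2667 FPKM in WT hearts.

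Two-level expression was looked for across all 12587 genes after Stbd1 and Baiap2l1 were seen. A gap of at least 1.5 log2 units, with at least 3 libraries on each side, was found in 34 genes. In 18 of them the levels split no group of 3, and in 16 at least 1 group was split. Ptprn2, a receptor-type phosphatase of secretory vesicles, was one of the 16, at 0.0381, 0.0208 and 3.93 FPKM in WT and 0.01, 5.12 and 3.65 FPKM in cKO chow hearts. The fourth of its 4 high libraries was a WT heart given PTU with T3.

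Of the 20 genes with the smallest p on chow, 5 lie on chromosome 5 (Ift81, Erp29, Tesc, Tbx3 and Zscan25), which holds 765 of the 12081 tested genes with a position (6.33%). Between 118027743 and 122614518, the stretch from Tesc to Ift81 on that chromosome, 45 genes were tested, 5 had an unadjusted limma p under 0.05, and the median log2 difference was -0.03. Its edges are Tesc and Ift81 themselves, and 4 of the 20 genes lie in it. The count of 5 was therefore largely fixed by how the stretch was drawn. Stbd1 and Baiap2l1 lie on the same chromosome. At an unadjusted p under 0.05 there were 30 genes of chromosome 5 (3.92%), beside 3.13% over all genes. This grouping was noticed in the data and was not tested.

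The response to T3 in the hearts that the chow comparison does not use was set beside the chow genes. Of the 39 tested genes that the authors' deposited table marks lower in cKO hearts on chow, 23 were higher with T3 than on PTU in WT hearts (59.0%), and of the 39 it marks higher, 15 were (38.5%), beside 49.8% of all tested genes. Counting only genes whose 3 WT hearts with T3 all lay above the 3 on PTU, the shares were 15.4% and 12.8%, beside 25.4% of all tested genes. For genes whose 3 WT hearts with T3 all lay below, they were 7.69% and 38.5%, beside 25.3%. In the cKO hearts 5 of the 39 lower and 20 of the 39 higher genes were higher with T3, beside 6300 of all 12587. Single hearts stood apart in matrix RNA, and 6 of the lower genes belong to the matrix list. Its summed level was 3765 FPKM in WT T3 heart 2, beside 1548 and 1806 FPKM. In cKO PTU heart 2 it was 4018 FPKM, beside 1693 and 1681 FPKM. The part of these hearts in the counts was not tested. Across all 12587 genes the genotype difference on chow correlated with the T3 response of WT hearts at -0.06, and at 0.0147 without chow heart 3 of each genotype, a description across genes that share their libraries.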
